A study of Mus musculus with 30 samples.

Results

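The genes described here are 10 genes of the BCL2 family and of the p53 response, taken as a list of symbols: Bcl2, Bcl2l1, Mcl1, Bax, Bak1, Bcl2l11, Bbc3, Pmaip1, Cdkn1a and Mdm2. All 10 were found by symbol among the 29555 genes of both deposited RNA tables, and all 10 passed the filter on low counts in each comparison. They were measured in mouse epiblast stem cells (EpiSCs), the primed pluripotent cells derived from the postimplantation epiblast, and in definitive endoderm (DE) made from them. The EpiSC libraries came from C57BL/6 (B6, n = 5), PWK/PhJ (PWK, n = 3), B6.129 F1 (n = 3) and DBA/2J (DBA, n = 1) cells. These cells grew on feeder cells in an N2B27-based medium with Fgf2, ActivinA and the tankyrase inhibitor NVP-TNKS656, and their treatment is labelled none. The DE libraries (B6, n = 4) came from a 46 h differentiation with a 16 h step in CHIR and Activin and a 24 h step in Activin and LDN, after which CXCR4-positive cells were taken by magnetic sorting. Chromatin accessibility was measured by ATAC-seq in B6 EpiSCs (n = 4), B6 DE (n = 4), PWK EpiSCs (n = 2) and DBA EpiSCs (n = 1). The labels number the replicates without saying that they came from separate cultures or lines, so p-values measure only the spread between these samples.

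Proteins of the BCL2 family set whether the outer mitochondrial membrane stays closed. Bcl2, Bcl2l1 (BCL-XL) and Mcl1 keep it closed, Bax and Bak1 are the effectors that form pores in it, and the BH3-only proteins Bcl2l11 (BIM), Bbc3 (PUMA) and Pmaip1 (NOXA) bind the protective members and release or activate the effectors. The transcription factor p53 activates Bax, Bbc3 and Pmaip1, the cell cycle inhibitor Cdkn1a (p21) and Mdm2, the ubiquitin ligase that degrades p53 itself. Pluripotent cells are known for mitochondria held close to the threshold for apoptosis.

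The windows upstream of 4 of these genes are shown because they lie beside peaks whose accessibility is described further on, and because 3 of them hold a match to the binding sequence of p53. RefSeq promoters (GRCm38.p6) were found for 9 of the 10 genes, with 15 annotated starts, and the 250 bases before each start were searched on both strands. The p53 element was taken as a pair of p53 half-sites at most 13 bases apart, so each element also counts as a half-site match. Each window is written 5′ to 3′ on the gene's strand, and capitals mark p53 half-sites. The Cdkn1a window is chr17:29090729-29090978 on the plus strand, the Bax window chr7:45466899-45467148 on the minus strand, the Mdm2 window chr10:117710759-117711008 on the minus strand and the Bak1 window chr17:27028628-27028877 on the minus strand.
Cdkn1a: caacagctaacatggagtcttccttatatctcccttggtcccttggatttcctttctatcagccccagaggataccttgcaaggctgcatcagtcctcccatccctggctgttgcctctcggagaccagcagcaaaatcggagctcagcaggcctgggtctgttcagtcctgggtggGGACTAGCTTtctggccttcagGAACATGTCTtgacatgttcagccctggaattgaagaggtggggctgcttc
Bax: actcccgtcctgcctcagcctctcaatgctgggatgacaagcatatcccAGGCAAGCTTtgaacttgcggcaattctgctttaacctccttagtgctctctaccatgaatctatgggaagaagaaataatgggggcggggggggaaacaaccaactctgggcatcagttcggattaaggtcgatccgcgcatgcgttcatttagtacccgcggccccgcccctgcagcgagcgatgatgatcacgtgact
Mdm2: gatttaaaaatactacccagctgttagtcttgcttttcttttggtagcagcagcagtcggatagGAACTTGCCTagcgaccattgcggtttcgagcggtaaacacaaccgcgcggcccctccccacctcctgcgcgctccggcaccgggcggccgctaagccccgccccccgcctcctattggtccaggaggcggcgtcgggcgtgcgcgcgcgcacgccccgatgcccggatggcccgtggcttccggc
Bak1: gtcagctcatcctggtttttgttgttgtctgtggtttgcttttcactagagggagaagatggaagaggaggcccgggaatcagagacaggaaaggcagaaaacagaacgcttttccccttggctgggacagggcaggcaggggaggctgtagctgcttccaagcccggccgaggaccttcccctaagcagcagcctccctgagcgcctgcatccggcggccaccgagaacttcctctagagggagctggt
By this definition, with exact matches only, the Cdkn1a window held a complete element, the only one among the 15 windows of these genes. Over 32851 mouse windows of the same length the share was 0.0639%. Near matches stayed in lower case: the tgacatgttc right after GAACATGTCT departs from the half-site pattern only in its opening base. Half-sites stood in 3 of the 15 windows (Cdkn1a, Bax and Mdm2), against 7.13% of all windows. The motif GGGCGG stood in 10 of 15 windows against 32.7% of all, CCAAT in 4 against 33.8%, CACGTG in 2 against 6.02%, and TATAAA in 0 against 12.4%. A match describes the letters of a window and not a bound site.

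Library totals were 22829536 to 66563933 counts for RNA and 3751526 to 9571127 for ATAC-seq. The summed level of 11 definitive endoderm markers was 6344 to 13202 CPM (counts scaled to the library total) in the DE libraries and 82.0 to 393 CPM in the B6 EpiSC libraries. Of 8 EpiSC markers, 5 were lower in DE, 2 (Fgf5 and Otx2) were higher and 1 (Dnmt3b) did not pass the test. The summed level of these 8 overlapped, at 2989 to 3987 CPM in DE and 2825 to 4215 CPM in B6 EpiSCs. Feeder fibroblast RNA varied among EpiSC libraries: the summed level of 15 fibroblast markers was 139, 1546, 619, 1514 and 3462 CPM in B6 EpiSC replicates 1, 2, 4, 44 and 51, and 160 to 386 CPM in DE. In DE, 11 of the 15 were lower and 1 (Pdgfra) was higher, with a median log2 difference of −3.19, and single DE libraries held 0 counts of Thy1, Lum or Fap. On the scale of the strain table, the same sum was 239 to 347 CPM in F1, 145 to 3527 CPM in B6, 2927 to 4078 CPM in PWK and 2069 CPM in DBA libraries. In bulk samples, fewer cells of a type and less RNA per cell cannot be told apart.

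The first comparison asked how these genes differ between B6 EpiSCs and the endoderm made from them. Bak1, Bcl2l11 and Pmaip1 were lower in DE, and Bcl2l1 and Bbc3 were higher, so that an effector and a pair of BH3-only genes fell while a protective gene and a further BH3-only gene rose. Bcl2, Mcl1, Bax, Cdkn1a and Mdm2 did not pass the test (edgeR's quasi-likelihood test, Benjamini-Hochberg adjusted p under 0.05, used throughout). The 2 genes called higher compare with 31.5% of the 14085 genes tested, and the 3 called lower with 30.6%. The groups did not overlap for 5 of the 10 genes, against 55.6% of all genes, and the median log2 difference was −0.06 over the 10 genes and −0.01 over all genes. As a count, the 10 genes therefore stood near the background, and what follows is about the single genes.

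**Figure D1:**
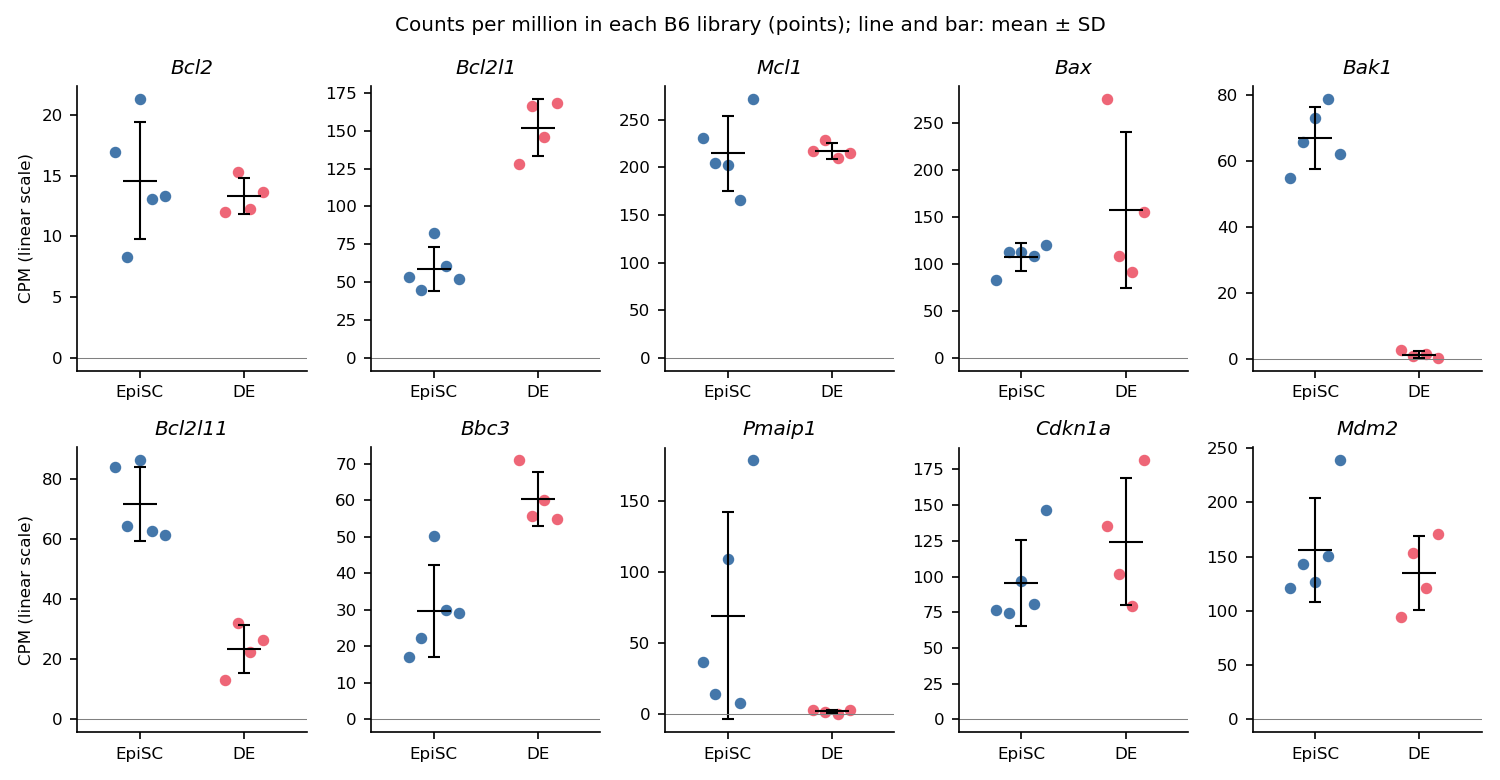
Level of each of the 10 genes in CPM (linear axis from 0) in every B6 library, EpiSC (n = 5) and DE (n = 4), with 1 point per library and lines for the mean ± SD. Bak1 lies between 0.394 and 2.80 CPM in DE and between 55.1 and 78.9 CPM in EpiSCs, whereas Mcl1 and Mdm2 overlap between the groups.

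Among the protective genes, Bcl2l1 (chr2:152758732-152833803, GRCm38) had 53.4, 44.6, 82.4, 60.5 and 52.1 CPM in EpiSC replicates 1, 2, 4, 44 and 51, and 128, 166, 146 and 168 CPM in DE replicates 2, 4, 44 and 51. Every DE library lay above every EpiSC library. From a mean of 58.6 ± 14.5 CPM (SD, n = 5) it rose to 152 ± 18.9 CPM (SD, n = 4), a log2 difference of 1.38 (SE 0.18, adjusted p = 0.000109). Bcl2 (chr1:106538176-106714290), the founding member of the family, ranged from 12.0 to 15.3 CPM in DE and from 8.30 to 21.3 CPM in EpiSCs. Its log2 difference was −0.13 (SE 0.26, adjusted p = 0.680), and the DE values lay within the EpiSC range. Mcl1 (chr3:95656944-95663179), a short-lived protective protein, ranged from 210 to 229 CPM in DE and from 166 to 272 CPM in EpiSCs, with a log2 difference of 0.02 (SE 0.15, adjusted p = 0.926).

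The effectors differed from each other. Bak1 (chr17:27019812-27028627) had 55.1, 65.8, 73.2, 78.9 and 62.3 CPM in the 5 EpiSC libraries and 2.80, 1.11, 1.45 and 0.394 CPM in the 4 DE libraries. No EpiSC library came near the DE values: the means were 67.1 ± 9.31 CPM (SD, n = 5) and 1.44 ± 1.01 CPM (SD, n = 4). The log2 difference was −5.62 (SE 0.50, adjusted p = 8.18e-06). Bax (chr7:45461695-45466903) had 82.5, 113, 113, 109 and 120 CPM in EpiSCs and 275, 108, 91.5 and 155 CPM in DE. DE replicates 2 and 51 lay above all EpiSC libraries, while replicates 4 and 44 lay among them. The log2 difference of Bax was 0.55 (SE 0.29, adjusted p = 0.121), and without DE replicate 44 it was 0.73 with an adjusted p of 0.0379.

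The BH3-only genes did not move together. Bcl2l11 (chr2:128126038-128162547) had 83.8, 64.2, 86.0, 62.6 and 61.2 CPM in EpiSCs and 13.2, 32.0, 22.4 and 26.2 CPM in DE, with no overlap. From a mean of 71.6 ± 12.2 CPM (SD, n = 5) it fell to 23.5 ± 7.90 CPM (SD, n = 4), and the log2 difference was −1.61 (SE 0.25, adjusted p = 0.000279). Bbc3 (chr7:16308398-16318334) went the other way. It had 17.1, 22.3, 50.1, 29.9 and 29.2 CPM in EpiSCs and 70.9, 55.6, 60.0 and 54.9 CPM in DE, so that EpiSC replicate 4 came closest to the DE libraries without reaching them. The log2 difference was 1.02 (SE 0.27, adjusted p = 0.00774), between means of 60.3 ± 7.36 CPM (SD, n = 4) and 29.7 ± 12.6 CPM (SD, n = 5). Pmaip1 (chr18:66458604-66465558) varied widely among the EpiSC libraries, with 36.7, 13.9, 109, 7.70 and 178 CPM. The DE libraries had 2.44, 1.19, 0 and 2.87 CPM, and the 0 counts of DE replicate 44 allow a level of up to 0.117 CPM. All 4 DE libraries lay below the lowest EpiSC library, and the log2 difference was −5.39 (SE 1.20, adjusted p = 0.00278).

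Neither Cdkn1a nor Mdm2 passed the test in DE. Cdkn1a (chr17:29090979-29100722) had 76.6, 74.7, 97.1, 80.8 and 147 CPM in EpiSCs and 135, 102, 79.2 and 181 CPM in DE, with a log2 difference of 0.39 (SE 0.27, adjusted p = 0.238). The groups overlapped through EpiSC replicate 51 and DE replicate 44. Mdm2 (chr10:117688875-117710758) had 121, 143, 126, 151 and 239 CPM in EpiSCs and 94.7, 153, 121 and 170 CPM in DE, with a log2 difference of −0.21 (SE 0.24, adjusted p = 0.465). EpiSC replicate 51, which held the most fibroblast RNA of the B6 libraries, was highest for Mcl1, Bax, Pmaip1, Cdkn1a and Mdm2 among the EpiSC libraries. EpiSC replicate 1, whose fibroblast sum of 139 CPM was below that of every DE library, lay outside the DE range for each of the 5 genes called, on the side of the other EpiSC libraries. The counting does not separate isoforms, and Bcl2, Bcl2l1, Bak1 and Bcl2l11 overlap other annotated genes (among them Cox4i2 in Bcl2l1, Ggnbp1 beside Bak1 and Acoxl beside Bcl2l11), with no statement on whether strand was used.

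By likeness of pattern over the 9 B6 libraries, the genes closest to Bak1 were Chic1, Gm9396 and Glul, with Pearson correlations of log2 CPM of 0.997, 0.997 and 0.996. The closest to Bcl2l1 were Vax1, Nck2 and Kif3c, each with a correlation of 0.988. These are descriptions over libraries that share the contrast between EpiSCs and DE.

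Other genes of the family and of the steps after it also changed in both directions. Of 16 further BCL2 family genes, 9 passed the filter, and of these 5 were higher in DE, 3 were lower and 1 (Bmf, a BH3-only gene, log2 difference −0.77) was not called, with a median of 0.53. Over all genes, 31.5% were higher and 30.6% lower, and the counts of each list in DE are to be read against these shares. Among those that rose were the BH3-only genes Bad (25.8 against 6.58 CPM, log2 difference 1.97, SE 0.25, adjusted p = 7.24e-05), Bik (1.65) and Bid (0.53), the effector-like gene Bok (1.89) and Bcl2l12 (0.84). Among those that fell were the BH3-only gene Hrk (−2.31) the protective gene Bcl2l2 (−2.14) and Bcl2l13 (−0.45). The near-identical Bcl2a1 copies had 0 counts and were not tested. Of 18 genes of caspases and their regulators, 5 were higher and 6 were lower, near the shares over all genes, with a median of 0.31. Among those that fell was Apaf1, the scaffold of the apoptosome (−0.84). The caspase inhibitor Cflar (−1.51) and Xiap, another inhibitor (−0.55), also fell. The mitochondrial nuclease Endog (2.61), the inhibitor Birc3 (1.40), Casp6 (1.29) and Diablo (0.91), an antagonist of Xiap, rose.

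The genes that govern p53 were mostly lower in DE, while p53 itself was not called. Trp53, which encodes p53, had a mean of 264 CPM in DE and 312 CPM in EpiSCs, with a log2 difference of −0.24 (SE 0.15, adjusted p = 0.182). The list called p53 regulators here has 12 genes and includes Trp53 itself and its relatives Trp63 and Trp73. Of these 12, 11 were tested, 9 were lower and 1 was higher, against 30.6% and 31.5% of all genes. The median was −1.53 against −0.01 over all genes. Mdm4, the partner of Mdm2 that restrains p53, had 178, 149, 151, 167 and 131 CPM in EpiSCs and 28.0, 47.3, 23.2 and 40.9 CPM in DE. The groups lay far apart, with a log2 difference of −2.15 (SE 0.22, adjusted p = 2.01e-05). Cdkn2a, whose ARF product inhibits Mdm2, fell by 4.71 on the log2 scale (adjusted p = 0.00051). Its EpiSC levels ranged from 1.44 CPM in replicate 1 to 22.0 CPM in replicate 51. These were the B6 EpiSC libraries of lowest and highest fibroblast sum, 139 and 3462 CPM, against 160 to 386 CPM in DE. How far fibroblast RNA contributed to the differences of the listed genes in DE was not tested. Trp73, a p53 relative, had 5.63 to 19.0 CPM in EpiSCs and 0 counts in 3 of the 4 DE libraries, with 1 count in DE replicate 44. The DNA damage kinases and the damage mediator on the list fell as well, with log2 differences of −2.36 for Atm, −1.53 for Atr, −1.07 for Chek1, −0.43 for Chek2 and −1.93 for Trp53bp1. The kinase Hipk2 rose, from 44.9 to 142 CPM (log2 difference 1.67, adjusted p = 0.00155).

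Further p53 targets divided. Of 30, 7 were higher and 12 were lower in DE, against 31.5% and 30.6% of all genes, with a median of −0.66. Perp, a tetraspan membrane protein, rose from 54.3 to 296 CPM (log2 difference 2.45, adjusted p = 4.34e-05), and Ei24, Btg2, Sesn1, Phlda3, Plk3 and Ppm1d rose by 0.93 to 1.46 on the log2 scale. Zmat3, an RNA-binding protein, fell from 243 to 31.6 CPM (log2 difference −2.94, adjusted p = 1.46e-05). The receptor genes Epha2 (−2.64), Eda2r (−2.13) and Tnfrsf10b (−2.10) also fell. Of 5 CDK inhibitor genes other than Cdkn1a, 4 were tested, and Cdkn1b (p27) alone was called, lower in DE at 13.9 against 45.9 CPM (log2 difference −1.72, adjusted p = 5.78e-05). No list was tested as a set.

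**Figure D2:**
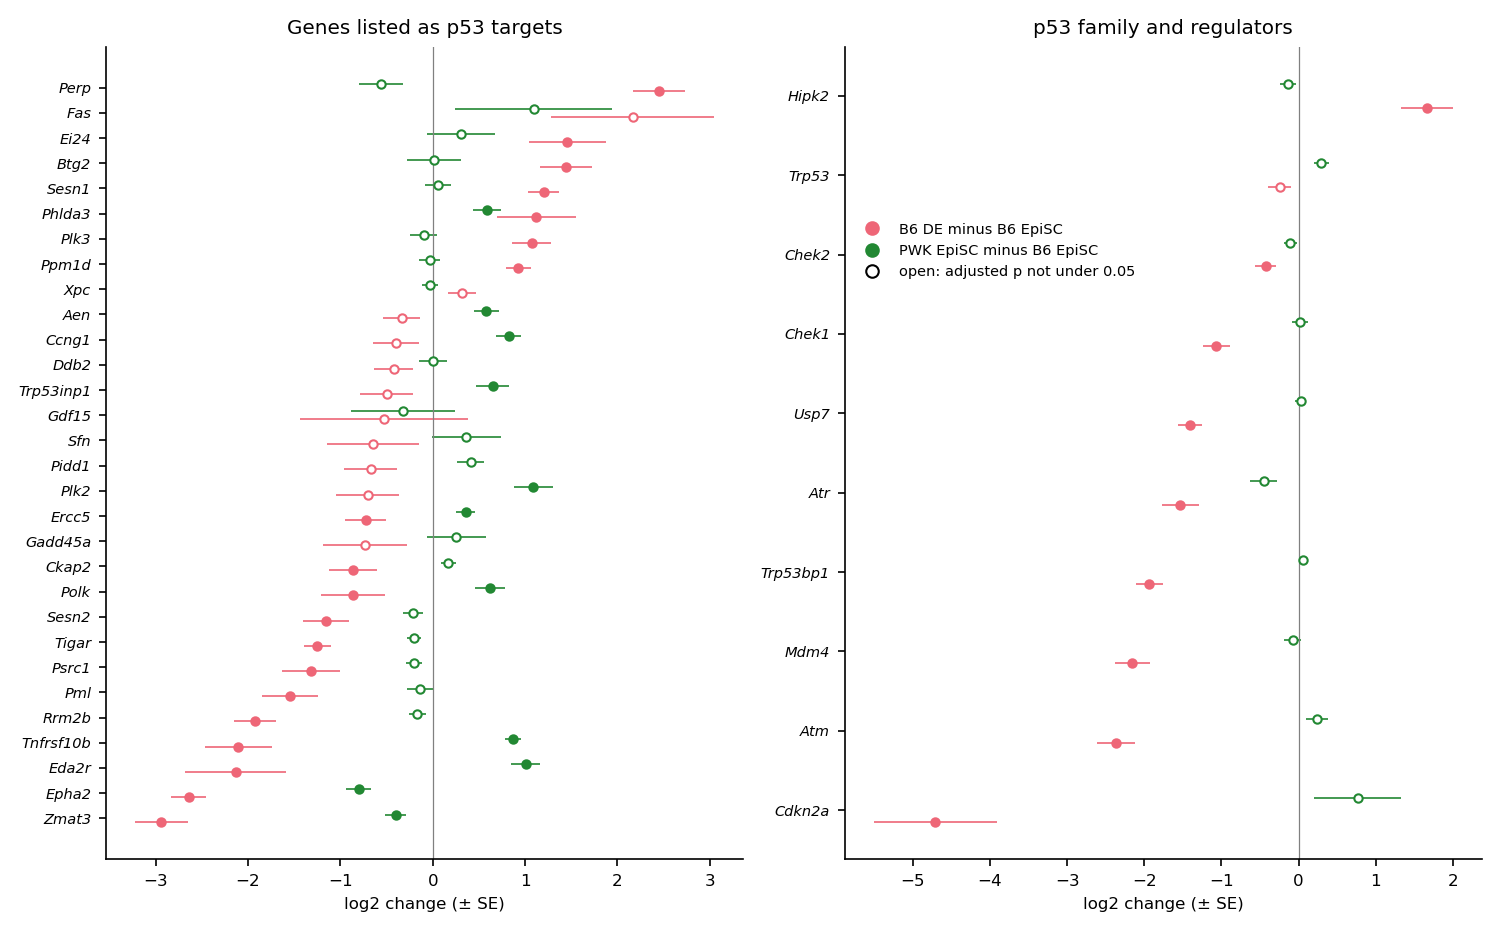
Log2 differences ± SE of the 30 further p53 targets (left) and of the p53 regulators drawn (right, without Trp73 and Trp63), with B6 DE minus B6 EpiSC in red and PWK minus B6 EpiSC in green, filled where the adjusted p is under 0.05. In DE 7 targets are higher and 12 lower, whereas in PWK 9 targets are higher, 2 are lower and 0 regulators are called.

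Accessibility of the same loci was compared next, over peaks that overlapped a gene or lay within 2 kb of either end. Of 73 such peaks 58 were tested, 22 were higher in DE and 15 were lower, against 32.6% and 25.0% of the 113870 peaks tested, with a median log2 difference of 0.24 against −0.01. Scaled by total counts, 33320 of all peaks were higher and 36674 lower in place of 37108 and 28496. Peaks of 1 locus are not independent of each other. Bcl2l1, whose transcript was higher in DE, had 9 of 17 tested peaks higher and 2 lower. Bcl2, whose transcript was not called, had 5 of 13 higher and 6 lower. Whether the coordinates of the peaks count from 0 or from 1 is not given in the sources used here.

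At Bcl2l1 the peak chr2:152827764-152828070, 419 bases inside the gene from an annotated start, had 3.52, 4.91, 2.55 and 1.24 CPM in EpiSC replicates 1, 4, 44 and 51, and 25.1, 19.4, 27.5 and 25.9 CPM in DE replicates 2, 4, 44 and 51. The groups lay far apart, with a log2 difference of 2.93 (SE 0.30, adjusted p = 7e-08). The peak at the strongest start, chr2:152831199-152831515, was open in both, with 25.3 to 27.7 CPM in EpiSCs and 28.2 to 41.2 CPM in DE (log2 difference 0.34, adjusted p = 0.063). Bcl2 changed in its long body and not at its start. Its peak chr1:106629501-106629757 had 30.1, 23.6, 22.7 and 28.4 CPM in EpiSCs and 3.70, 5.27, 5.44 and 5.19 CPM in DE (log2 difference −2.41, SE 0.22, adjusted p = 2e-08). A further peak of the body, chr1:106650584-106650852, went from 0.608 ± 0.810 CPM in EpiSCs to 9.43 ± 2.53 CPM in DE (SD, n = 4 each, log2 difference 3.62). At the Bcl2 start the log2 difference was 0.33 (adjusted p = 0.284). The 1 tested peak of Mcl1 gave a log2 difference of 0.17 (adjusted p = 0.393).

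**Figure D3:**
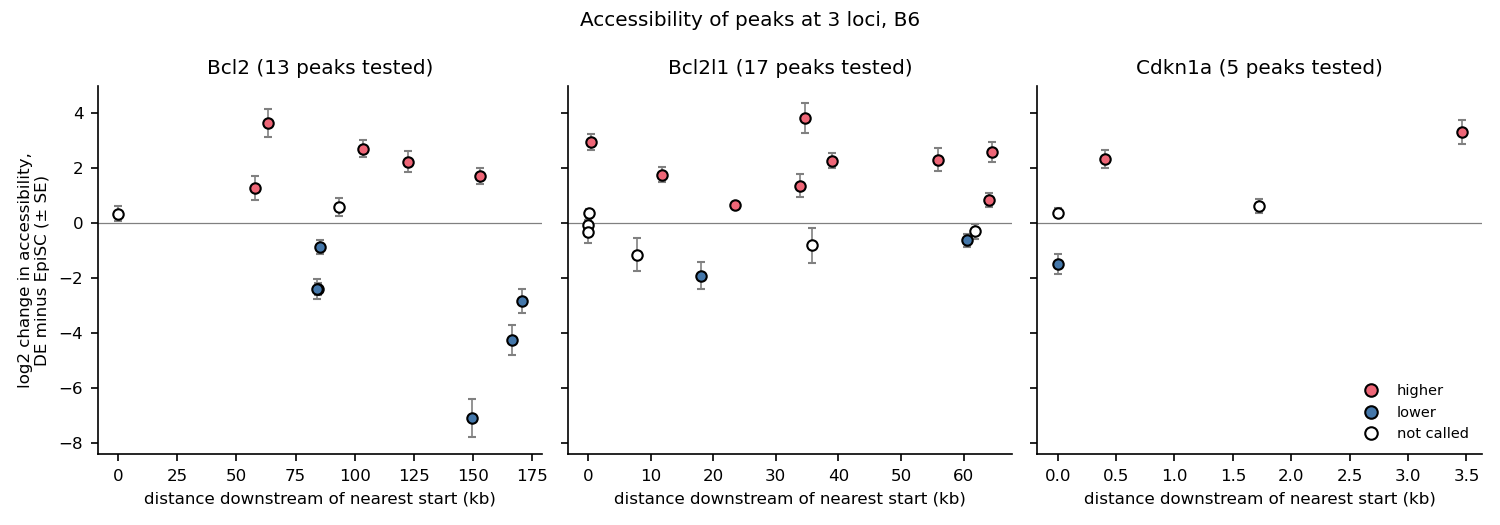
Log2 difference ± SE in accessibility (DE minus EpiSC, B6) of each tested peak against its distance downstream of the nearest annotated start in kb, for Bcl2 (13 peaks), Bcl2l1 (17) and Cdkn1a (5), coloured red where called higher, blue where called lower and open where not called. The Bcl2 peaks split into 5 higher and 6 lower, and 9 of the Bcl2l1 peaks are higher.

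The start of Bak1 stayed open while its transcript was low. The peak chr17:27028529-27028763, which reaches into the Bak1 window shown above, had 16.5, 18.0, 28.6 and 20.8 CPM in EpiSCs and 14.0, 18.8, 14.6 and 24.5 CPM in DE. The groups overlapped, and the log2 difference was −0.22 (adjusted p = 0.398). At Bax the start peak chr7:45466377-45466627 was higher in DE, at 24.9, 24.0, 18.3 and 24.8 CPM against 11.8 to 16.3 CPM in the 4 EpiSC libraries (log2 difference 0.69, adjusted p = 0.00408, and 0.0615 over replicates 4, 44 and 51 of both groups alone). The next peak upstream, chr7:45467413-45467553, was lower, at 5.76, 4.44, 4.29 and 3.75 CPM against 8.80, 10.7, 9.44 and 15.8 CPM (log2 difference −1.29, adjusted p = 0.00055). Neither pair overlapped.

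Among the BH3-only genes, Pmaip1 had 1 tested peak, chr18:66460904-66461466, inside the gene. It had 44.6, 39.8, 26.3 and 52.7 CPM in EpiSCs and 17.9, 25.5, 19.8 and 20.2 CPM in DE (log2 difference −0.97, SE 0.19, adjusted p = 0.000157). Both the peak and the transcript of Pmaip1 were lower in DE. Bcl2l11 showed the reverse: its transcript was lower, while 3 of its 4 tested peaks were higher and 0 were lower. The Bcl2l11 start peak chr2:128125637-128126136 had 26.1, 26.6, 25.8 and 29.7 CPM in EpiSCs and 32.5, 44.4, 32.9 and 34.0 CPM in DE (log2 difference 0.41, adjusted p = 0.0255), a call that DESeq2 (adjusted p = 0.0545) and scaling by total counts (adjusted p = 0.261) did not make and that was lost in 6 of the 8 fits with a library left out (all but those without DE replicate 44 or 51). The larger difference lay at chr2:128157119-128157312, with 3.20, 1.70, 1.02 and 2.94 CPM in EpiSCs and 8.64, 14.0, 12.9 and 6.34 CPM in DE (log2 difference 2.22, adjusted p = 2.3e-05). At Bbc3 the start peak was not called (log2 difference 0.46, adjusted p = 0.0753), and chr7:16313141-16313277 was higher in DE by 0.95 (adjusted p = 0.00545, and 0.0614 without EpiSC replicate 51).

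At Cdkn1a accessibility differed in opposite directions over short distances, with no called difference in the transcript. Of 5 tested peaks, 2 were higher in DE, 1 was lower and 2 were not called. The highest peak at a start, chr17:29093513-29093881, was among those not called (log2 difference 0.37, adjusted p = 0.0592, and 0.0174 without EpiSC replicate 44). The peak chr17:29090846-29090995, in which both p53 half-sites of the window shown above lie (29090906-29090915 and 29090928-29090937), had 8.80 ± 0.990 CPM in EpiSCs and 3.34 ± 2.08 CPM in DE (SD, n = 4 each). The groups did not overlap, and the log2 difference was −1.49 (SE 0.36, adjusted p = 0.00124). The next peak, chr17:29091381-29091590, 402 bases into the gene, was higher in DE, at 14.7 against 3.10 CPM (log2 difference 2.33, adjusted p = 3.32e-06). A peak 3460 bases from a start, chr17:29097229-29097311, had 0.320, 1.40, 0.255 and 0.930 CPM in EpiSCs and 7.20, 8.89, 9.59 and 6.92 CPM in DE (log2 difference 3.30, adjusted p = 1.9e-06). At Mdm2, 3 of 5 tested peaks were lower in DE and 0 were higher. The largest of these differences, chr10:117687681-117687832, lay beyond the 3′ end and beside the gene Cpm, at 0.412, 1.65, 1.14 and 1.15 CPM in DE against 6.24, 5.81, 6.38 and 5.42 CPM in EpiSCs (log2 difference −2.40, adjusted p = 5.12e-05). The Mdm2 start peak was not called (log2 difference −0.40, adjusted p = 0.0932).

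**Figure D4:**
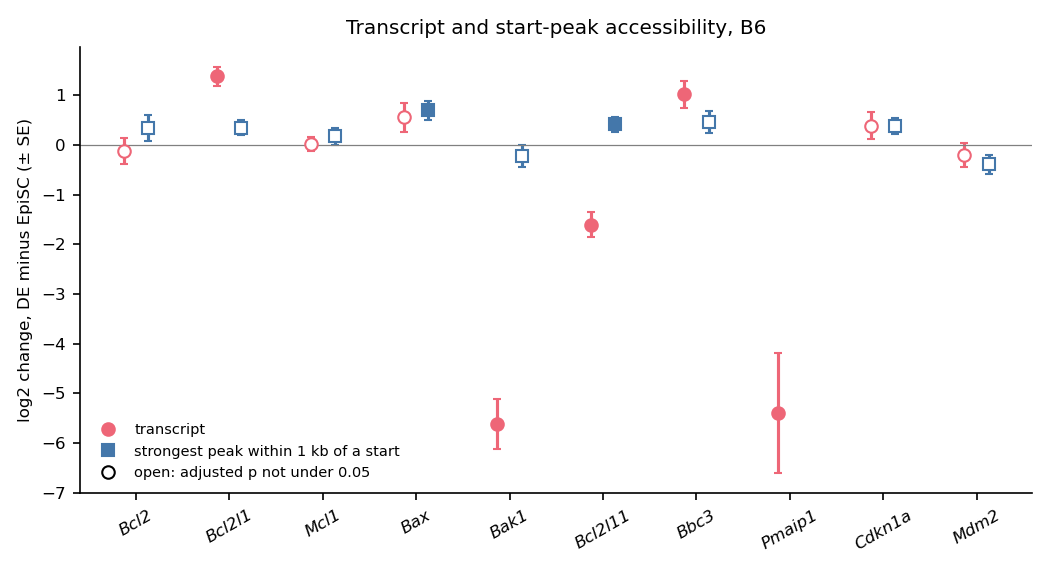
Log2 difference ± SE, DE minus EpiSC in B6, of the transcript (circles) and of the strongest peak within 1 kb of a start (squares) for each of the 10 genes, filled where the adjusted p is under 0.05. Pmaip1 has no start peak among the peaks of this comparison, and Bak1 lies at −5.62 for the transcript and −0.22 for the peak.

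The strain comparisons asked how the same genes vary with genetic background in EpiSCs. In PWK against B6, Cdkn1a, Mdm2 and Bax were higher and 0 of the 10 genes were lower. These 3 compare with 12.0% of the 14822 genes tested called higher, and 14.5% were called lower. The groups did not overlap for 2 of the 10 genes (Cdkn1a and Bax), against 32.1% of all genes in either direction. In F1 against B6, Cdkn1a was lower and 0 were higher, against 1.50% and 1.34% of all genes, and 3 of the 10 (Cdkn1a, Mdm2 and Bak1) lay wholly below B6, against 14.5% of all genes without overlap. In PWK against F1, Cdkn1a, Mdm2 and Bax were higher and 0 were lower, against 20.7% and 19.4% of all genes, and 7 of the 10 did not overlap, against 62.5%. In the directions with 0 calls by edgeR (lower in PWK, higher in F1), 0 of the 10 genes had an unadjusted p under 0.05 and DESeq2 called 0. Scaled by total counts, 2226 of all genes were higher and 1708 lower in PWK against B6 in place of 1781 and 2142, and 3606 higher and 2180 lower in PWK against F1 in place of 3067 and 2869. The 3 comparisons share libraries, so they do not repeat each other independently, and their values are set side by side. The only genome build named is mm10, and whether sequence variants of the strains affected the counts was not tested.

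**Figure D5:**
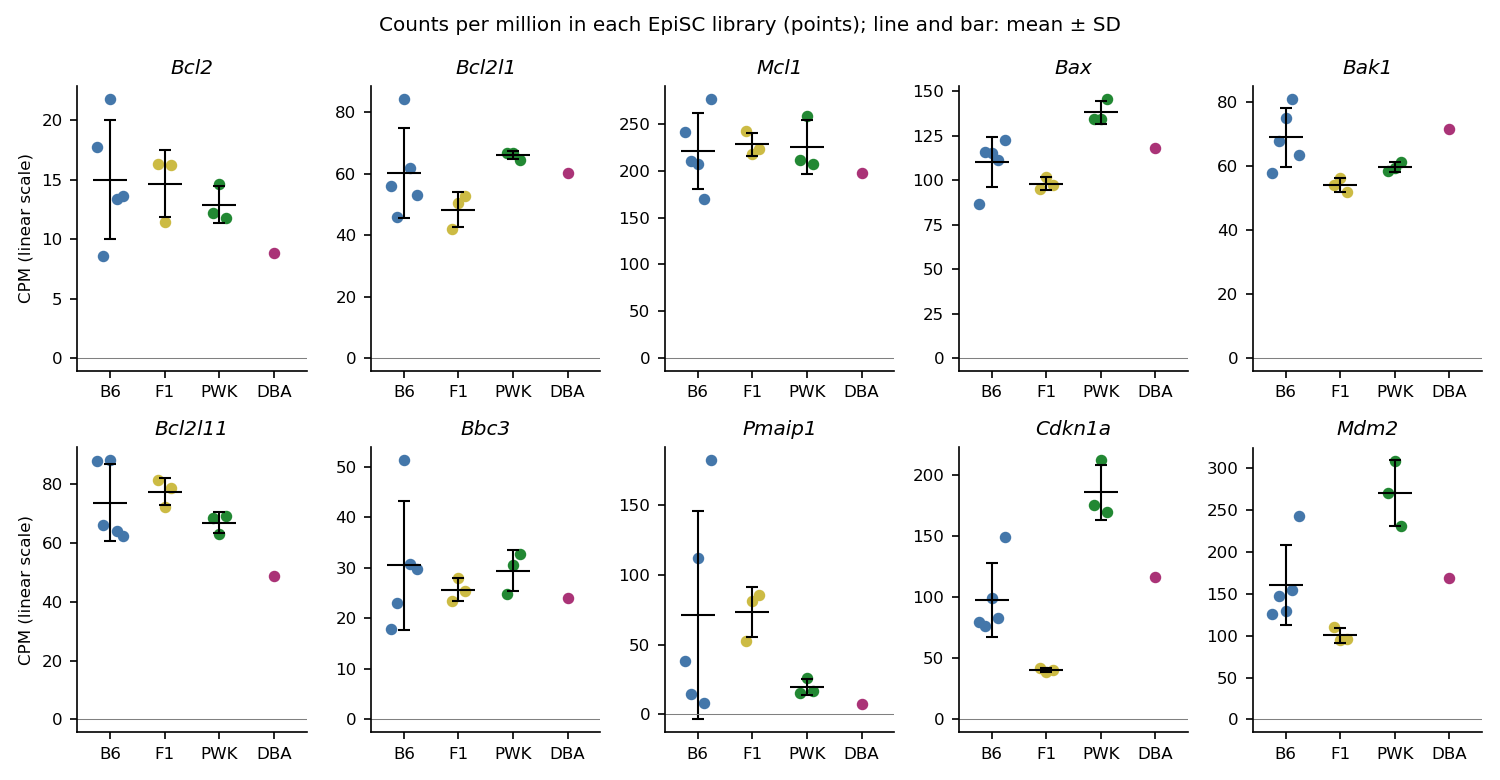
Level of each of the 10 genes in CPM (linear axis from 0) in every EpiSC library of B6 (n = 5), F1 (n = 3), PWK (n = 3) and DBA (n = 1), with 1 point per library and lines for the mean ± SD. Cdkn1a lies at 38.6 to 41.9 CPM in F1 and 170 to 212 CPM in PWK, and Mcl1 overlaps across the groups.

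Cdkn1a separated the 3 replicated groups without overlap. It had 80.2, 76.9, 99.3, 82.8 and 149 CPM in B6 replicates 1, 2, 4, 44 and 51, 41.9, 38.6 and 40.8 CPM in F1, 175, 212 and 170 CPM in PWK, and 117 CPM in DBA. The F1 libraries lay below all B6 libraries and the PWK libraries above them, while DBA lay inside the B6 range. The log2 difference was 0.93 for PWK against B6 (SE 0.20, adjusted p = 0.00571), −1.32 for F1 against B6 (SE 0.21, adjusted p = 0.0241) and 2.25 for PWK against F1 (SE 0.24, adjusted p = 7.26e-05). Mdm2 had 126, 148, 129, 154 and 243 CPM in B6, 110, 94.4 and 96.7 CPM in F1, 271, 309 and 231 CPM in PWK, and 169 CPM in DBA. Here B6 replicate 51 reached into the PWK range, and the F1 libraries lay below all others. The log2 difference of Mdm2 was 0.76 for PWK against B6 (SE 0.20, adjusted p = 0.0179), −0.72 for F1 against B6 (adjusted p = 0.0807) and 1.47 for PWK against F1 (SE 0.23, adjusted p = 0.000883).

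Bax had 86.3, 116, 115, 111 and 122 CPM in B6, 95.1, 102 and 97.2 CPM in F1, 135, 135 and 146 CPM in PWK, and 118 CPM in DBA. The PWK libraries were the highest, by a small margin over B6: the log2 difference was 0.33 (SE 0.10, adjusted p = 0.0381), and 0.54 against F1 (SE 0.12, adjusted p = 0.00502). Pmaip1, another p53 target, was not called in either comparison of PWK. It had 38.4, 14.3, 112, 7.89 and 182 CPM in B6, 52.6, 81.2 and 85.7 CPM in F1, 15.6, 26.2 and 16.8 CPM in PWK and 7.66 CPM in DBA. The PWK libraries lay within the wide B6 range, with a log2 difference of −1.86 (adjusted p = 0.155). They lay below all F1 libraries, with a log2 difference of −1.86 (SE 0.96, adjusted p = 0.151, and 0.00111 with only the 2 groups fitted). Bak1 had 57.6 to 80.9 CPM in B6, 51.9 to 56.2 CPM in F1, 58.3 to 61.2 CPM in PWK and 71.6 CPM in DBA, and was not called in PWK against B6 (adjusted p = 0.170) or in F1 against B6 (adjusted p = 0.0656), although F1 lay below the B6 range. For Bcl2, Bcl2l1, Mcl1, Bcl2l11 and Bbc3, no comparison between strains passed edgeR's test as set out above. Bcl2l1 had a log2 difference of 0.50 in PWK against F1 with no overlap (adjusted p = 0.0521), and passed under DESeq2 (0.0247), RLE scaling (0.0476), total-count scaling (0.036), the filter of 10 counts in every library (0.0431), only the 2 groups (0.00283), and without B6 replicate 2 (0.0337) or 4 (0.00937).

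Fibroblast RNA also differed among these EpiSC libraries. Of the 15 fibroblast markers all were higher in PWK than in F1 (median log2 difference 3.84), with a median of 1.27 in PWK against B6 and of −2.65 in F1 against B6. In these last comparisons edgeR called 0 of the 15, and 3 were higher in PWK and 14 lower in F1 at an unadjusted p under 0.05. B6 replicate 1 had a fibroblast sum of 145 CPM, below that of every F1 library, and its Cdkn1a level of 80.2 CPM was above the 38.6 to 41.9 CPM of F1. B6 replicate 51, whose sum of 3527 CPM lay within the PWK range, had 149 CPM of Cdkn1a against 170 to 212 CPM in PWK, 122 CPM of Bax against 135 to 146 CPM, and 243 CPM of Mdm2 against 231 to 309 CPM. With the fibroblast level of each library as a covariate, a fit added after the data were seen, Cdkn1a passed the test in all 3 comparisons, at log2 differences of 0.70 (PWK against B6, adjusted p = 0.0458), −1.06 (F1 against B6, adjusted p = 0.048) and 1.76 (PWK against F1, adjusted p = 0.00538). In that fit Mdm2 and Bax were not called in PWK against B6 (log2 differences 0.45 and 0.13, adjusted p = 0.107 and 0.303) or in PWK against F1 (0.83 and 0.14, adjusted p = 0.0566 and 0.465). The fibroblast sums of F1 (239 to 347 CPM) and PWK (2927 to 4078 CPM) did not overlap. Strain and fibroblast RNA are therefore partly confounded in this fit and cannot be told apart by it.

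Single libraries decided some of these calls. In PWK against B6 the call of Mdm2 was lost without the PWK library BioRep698 (adjusted p = 0.0812) or BioRep695 (adjusted p = 0.0522). That of Bax was lost without B6 replicate 4 or 44, any PWK library, or F1 replicate 4 or the unmatched F1 library. The Bax call was also lost with no filter (adjusted p = 0.0579) and with only the 2 groups in the fit (0.0712). Cdkn1a kept its call there whichever library was left out (log2 difference 0.82 to 1.14). In F1 against B6 the call of Cdkn1a was lost without F1 replicate 4 (adjusted p = 0.109), F1 replicate 9 (0.0575), the unmatched F1 library (0.154) or the unmatched PWK library (0.0525), and with only the 2 groups in the fit (0.103). Without B6 replicate 1, 4 of the 10 genes were lower in F1: Cdkn1a, Mdm2 (adjusted p = 0.0392), Bak1 (0.0181) and Bax (0.0244). In that fit the calls over all genes also rose, to 1001 higher and 951 lower of 14748, from 199 and 222 of 14822.

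Among the wider lists, p53 targets were called in PWK and p53 regulators were not. Of the 30 further p53 targets, 9 were higher and 2 were lower than in B6, against 12.0% and 14.5% of all genes, with a median log2 difference of 0.11 against −0.01 over all genes. With the fibroblast covariate, 6 of the 30 were higher and 3 were lower, and 0 of the regulators were called. Plk2, a polo-like kinase, had a mean of 103 CPM in PWK and 48.4 CPM in B6 (log2 difference 1.09, adjusted p = 0.00343). Other targets that rose were Eda2r (1.00, adjusted p = 0.000895), Tnfrsf10b (0.87), Ccng1 (0.82), Trp53inp1 (0.65), Polk (0.62), Phlda3 (0.59), Aen (0.58) and Ercc5 (0.36), and those that fell were Epha2 (−0.80) and Zmat3 (−0.40). Of the 12 p53 regulators 0 were called by edgeR, with log2 differences of 0.30 for Trp53 (adjusted p = 0.0551) and −0.08 for Mdm4 (adjusted p = 0.65). At an unadjusted p under 0.05, 3 of these regulators were higher and 1 lower, and DESeq2 called 2 higher and 0 lower. Of the further BCL2 family genes, 2 of 9 tested were lower in PWK (Hrk at −1.20 and Bcl2l13 at −0.40) and 0 were higher by edgeR, against 1 at an unadjusted p under 0.05 and 1 by DESeq2. Among the caspases and their regulators 3 were higher, led by Cflar at 70.6 against 32.6 CPM (log2 difference 1.12, adjusted p = 0.000594), and 3 were lower, led by Birc3 (−0.81) and Birc2 (−0.49). Without the PWK library BioRep698 or BioRep695 the 3 higher became 1, and without B6 replicate 1 the 3 lower became 5. The CDK inhibitor Cdkn1b had a log2 difference of −0.33 (adjusted p = 0.0321), a call lost without B6 replicate 1 or 4, BioRep695 or the unmatched PWK library, with only the 2 groups fitted, with total-count scaling and with the fibroblast covariate.

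In F1 against B6, 2 of the 30 further p53 targets were lower, Plk2 (−1.17, adjusted p = 0.0339) and Phlda3 (−0.79, adjusted p = 0.0341). At an unadjusted p under 0.05, 11 were lower and 0 were higher, and DESeq2 called 5 lower and 0 higher. Over all 14822 genes, edgeR called 222 lower (1.50%) and DESeq2 called 1124 lower. In either direction, 3614 of all genes had an unadjusted p under 0.05. Leaving out 1 library moved the count of lower targets to between 0 and 4, and it was 0 with the fibroblast covariate. The caspase inhibitor Xiap was higher (0.46, adjusted p = 0.0394), the 1 call among the caspases and their regulators, a count that became 0 or 2 in 10 of the 11 fits with a library left out, and Mdm4 was not called (0.45, adjusted p = 0.0555). In PWK against F1, 11 of the 30 were higher and 2 were lower, against 20.7% and 19.4% of all genes. The median was 0.37 against 0.01 over all genes. Those that were higher were led by Plk2 (2.26), Eda2r (1.46), Phlda3 (1.38), Ccng1 (1.29) and Trp53inp1 (1.26). Genes of the regulator list were called here too: Cdkn2a (3.54), Trp73 (2.24) and Trp53 (0.46, adjusted p = 0.0101) were higher in PWK, and Atr (−0.94) and Mdm4 (−0.52) were lower. With the fibroblast covariate, 8 of the 30 targets were higher and 0 lower in PWK against F1, and 0 regulators were higher and 1 lower.

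The DBA library has no replicate, so only its position against the 5 B6 libraries can be given. Bcl2l11, at 48.7 CPM, and Pmaip1, at 7.66 CPM, lay below the B6 range, with log2 ratios of −0.60 and −3.19 to the B6 mean. The other 8 genes lay inside it. Of 12797 genes, 21.6% lay below the B6 range and 19.9% above it, so 2 of 10 below is near the background.

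In the accessibility of EpiSC chromatin, 59 of 68 peaks of the 10 genes were tested between PWK and B6, 0 were called higher and 1 lower, against 1.42% and 3.68% of the 137667 peaks tested. At an unadjusted p under 0.05, 1 were higher and 6 lower, and DESeq2 called 0 higher and 1 lower. The 1 peak was that of Pmaip1, chr18:66460904-66461466, with 16.5 and 11.0 CPM in the PWK library BioRep698 and the unmatched PWK library, 43.4, 41.4, 25.9 and 52.0 CPM in B6 replicates 1, 4, 44 and 51, and 30.3 CPM in DBA. Both PWK libraries lay below all others (log2 difference −1.57, SE 0.27, adjusted p = 0.00279). For ATAC-seq too, mm10 was the only genome build named, and loss of PWK reads at sequence variants was not tested. The peak that holds the Cdkn1a p53 half-sites, chr17:29090846-29091019 in this table, had 19.1 and 15.6 CPM in PWK, 9.33, 10.7, 7.79 and 9.95 CPM in B6, and 11.8 CPM in DBA. Both PWK libraries lay above all others, and the log2 difference of 0.88 (SE 0.24) narrowly missed the threshold (adjusted p = 0.0515, and 0.0349 when scaled by total counts). At the Mdm2 start the log2 difference was −0.68 (adjusted p = 0.105).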

How the data were processed

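RNA was measured by poly(A) RNA-seq with a stranded kit, read from both ends, per the labels' protocols, and accessibility by ATAC-seq. The authors deposited whole-number counts of reads per gene and per peak, not normalized. Per the submitters' processing notes, the RNA work used featureCounts, Salmon and DESeq2 and the ATAC-seq work used fastp, Bowtie2, MACS2, featureCounts and DESeq2, with mm10, and no versions or roles are given in the sources used here. Of 19 labelled RNA samples 16 were used. The 3 PWK DE samples, for which no column name fitted, were not analysed here, nor were 17 columns that match no sample. Columns whose names show the group but no labelled replicate (1 F1 and 1 PWK for RNA, 1 PWK for ATAC-seq) were replicates of their group and are called unmatched. The B6 EpiSC columns are identical in both gene tables. No pair of replicates agreed within sampling noise.

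Counts were tested in R 4.3.3 with edgeR 4.0.16 (TMM scaling, the default low-count filter, robust quasi-likelihood F test, Benjamini-Hochberg adjusted p-values over all genes or peaks tested, threshold 0.05). SE is the log2 difference over the square root of F, and CPM uses TMM-scaled totals, so B6 EpiSC values differ slightly between tables. The B6 fit held 9 libraries and the strain fit 11, with 1 shared spread. Levels are not per length and are not compared between genes. A count of 0 allows up to 3 counts, which covers counting error only. The fits were tested on simulated data. Alternatives were DESeq2 1.42.0, other scalings and filters, each library left out and a replicate block. Gene positions and upstream windows are RefSeq's, GRCm38.p6, and 29270 of 29555 gene IDs matched a symbol.

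The 10 genes and the lists were chosen with earlier results of these data known. All 10 were named. From each list, Trp53, Mdm4 and the called genes of largest change were named (up to 4 in each direction in DE and 2 in PWK). For accessibility in DE, the highest peak within 1 kb of a start and the peak of smallest adjusted p were named for each of the 10 genes. The 3 genes of highest correlation were named for the gene of smallest adjusted p in each direction. A gene that this rule names is not reported here. Other list genes and peaks named, among them the Cdkn1a peak over the p53 half-sites, were chosen after their values were seen.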

Additional observations from a re-analysis of the deposited data

Results flagged for a closer look

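In B6 EpiSC replicate 51 the level of Mdm2 was 239 CPM, while the other 4 B6 EpiSC libraries had 121 to 151 CPM. The gap to the nearest of them was 0.745 of the whole range, above the critical value for 5 samples, and chance passes it in about 1 of 20 groups (20 groups were tested). The same library had the highest fibroblast sum of the B6 libraries, 3462 CPM.

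The differences of PWK and of F1 EpiSCs from B6 themselves differed for 3 genes in the test of PWK against F1, with log2 differences of 2.25 for Cdkn1a, 1.47 for Mdm2 and 0.54 for Bax. Cdkn1a was called in opposite directions against B6 in the 2 groups.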

How the results depend on the processing

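No called log2 difference of the 10 genes changed sign under any alternative, while uncalled ones did in 10 (DE), 7 (PWK against B6), 20 (F1 against B6) and 7 (PWK against F1) values. In B6 DE no call was lost over 159 values. Pmaip1 gave no value where at least 10 counts in every library were required. Over all genes, F1 against B6 gave 876 higher and 1124 lower by DESeq2 (3 of the 10 genes lower), 146 lower without a filter, and 0 and 0 with only the 2 groups fitted (0 of the 10 genes lower, 2779 of 14132 genes at an unadjusted p under 0.05). With the fibroblast covariate, 1 of the 10 genes was higher in PWK against B6 and 1 in PWK against F1, and all genes gave 51 and 106 in F1 against B6 and 876 and 982 in PWK against F1. With only the 2 groups, PWK against F1 gave 5 of the 10 genes higher and 1 lower, beside 3935 higher and 3880 lower of all 14398 genes tested. With at least 10 counts in every library, ATAC-seq gave 9868 peaks higher and 8144 lower in DE (10 and 7 at the 10 genes) and 667 and 1443 in PWK. Within 2 kb of gene ends only, 5 and 5 peaks were called in DE and 0 lower in PWK. The RLE scaling and total counts each called 1 peak of the 10 genes higher in PWK. Total counts shifted the median log2 difference of ATAC-seq in DE to −0.22.

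Leaving out 1 library at a time gave 4030 to 4561 genes higher and 3827 to 4586 lower in DE (2 to 3 and 3 to 3 of the 10), 1126 to 2428 and 1317 to 2476 in PWK against B6 (1 to 3 and 0 to 1), 0 to 1001 and 0 to 951 in F1 against B6 (0 to 0 and 0 to 4), and 2185 to 3232 and 2064 to 3466 in PWK against F1 (3 to 4 and 0 to 0). For peaks the ranges were 33748 to 40472 and 29747 to 36781 in DE (17 to 23 and 14 to 18), and 1001 to 2027 and 2628 to 5418 in PWK (0 to 0 and 1 to 3), where the lone PWK library was assumed to vary like the other group. The causes were not tested.

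The RNA libraries of the same number correlated at 0.0881 to 0.237 and the ATAC-seq libraries at −0.00517 to 0.0485, so the numbers were not taken to pair samples, although each RNA library correlated best with its own number. With the replicate block, RNA in DE gave 3792 genes higher and 3939 lower (2 and 3 of the 10), against 4171 and 4026 for the same libraries without it, and ATAC-seq gave 32883 and 21504 peaks (16 and 13 at the 10 genes) against 35207 and 26136. On these libraries the start peaks of Bax and Bcl2l11 were not called with the block (adjusted p = 0.0868 and 0.0964) or without it (0.0615 and 0.0876). No paired analysis was possible for the strains because the groups share fewer than 2 numbers.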
